A study of Mus musculus with 24 samples.

Results

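The genes described here are 10 epithelial and mesenchymal adhesion genes, chosen by name: Cdh1, Cdh2, Epcam, Tjp1, Vim, Zeb1, Zeb2, Itgb1, Ctnnb1 and Col11a2. All 10 symbols were found among the 46517 gene entries counted, and 9 of the 10 had enough reads to be among the 14866 genes tested. Epcam did not. RNA was sequenced from βTC3 cells, an insulinoma line derived from Rip-Tag2 mice, which develop pancreatic neuroendocrine tumours. All cells carried the plasmid PB-31, either alone (control line), with the miR-23b cluster (miR-23b line) or with miR-137 (miR-137 line), and doxycycline (DOX) served as the inducer. Each line was grown for 7 d either in plain DMEM (no DOX) or in DMEM that held 2 µg/ml DOX (7 d DOX). The miRNA lines were also grown for 7 d with DOX and then for another 7 d without it (DOX withdrawn). This gave 8 groups of 3 libraries, 24 in all, from cells plated in triplicate. The labels name no clone, passage, date, plate or run, no withdrawn control culture, and no culture grown without DOX over the longer span of the withdrawn ones. DOX, or time in culture, can therefore not be told apart from a batch shared by the cultures of a condition. This holds for every comparison of no DOX, DOX and withdrawn cultures below. The withdrawn cultures were grown for 7 d longer than those with DOX, so removal of DOX and time in culture cannot be told apart.

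Epithelial cells are held together by adherens junctions, in which E-cadherin (Cdh1) binds its like on the next cell and is tied to actin through β-catenin (Ctnnb1), and by tight junctions, whose scaffold protein ZO-1 is made from Tjp1. The adhesion molecule EpCAM (Epcam) marks most simple epithelia. In an epithelial to mesenchymal transition, repressors such as ZEB1 and ZEB2 bind E-boxes in the Cdh1 promoter, N-cadherin (Cdh2) takes the place of E-cadherin, and the intermediate filament vimentin (Vim) appears. Integrin β1 (Itgb1) binds the extracellular matrix, and Col11a2 encodes a chain of the fibrillar collagen XI. Islet endocrine cells carry both E-cadherin and N-cadherin, and in Rip-Tag2 tumours loss of E-cadherin is known to accompany the step from adenoma to carcinoma. A miRNA lowers RNAs whose 3' untranslated region (UTR) pairs with its seed, bases 2 to 8 from its 5' end.

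Reads counted in genes numbered 15759849 to 24144737 per library. Between 20898 and 21066 genes had a count in the control libraries with DOX, against 19090 to 20336 in the other 21, and every response below that is set against the control line uses these libraries. The induced loci followed the labels. Mir23b, Mir27b and Mir24-1 read 49.8 to 113 CPM (the count scaled to a fixed library total) with 7 d DOX in the miR-23b line and at most 0.698 in the 18 libraries of the groups with neither miRNA induced. Of those 18, the miR-23b line without DOX was highest for Mir24-1 (0.55 to 0.698) and Mir27b (0.444 to 0.55). The control line without DOX read at most 0.105 for either. Gm26871, the transcript around Mir137, read 121 to 126 in the miR-137 line with DOX, at most 4.58 in those 18 and 4.82 to 6.15 in the miR-23b line with DOX. All 14 beta cell and neuroendocrine markers were above 1 CPM in every library (sum 18963 to 23505 CPM). Of 11 fibroblast and stellate markers 10 were below 1 CPM in every library, and the list's sum was 2.35 to 4.93 CPM. It was mostly Col1a1, at 2.00 to 4.12, while Col3a1 was at 0 counts in 18 libraries and Dcn in 16.

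Levels between genes were compared on the authors' TPM (which corrects for transcript length) in the control line without DOX, with SD over n = 3 libraries. Ctnnb1 was highest at 486 ± 12.1, followed by Itgb1 at 168 ± 2.66, Tjp1 at 68.6 ± 3.40 and Cdh2 at 64.6 ± 1.77. Zeb1 stood at 52.2 ± 1.99, Zeb2 at 9.61 ± 0.388 and Col11a2 at 6.72 ± 0.414. Cdh1 stood at 1.56 ± 0.240, Vim at 0.683 ± 0.0814 and Epcam at 0.0433 ± 0.0306. The libraries of Tjp1 (64.9 to 71.5) and Cdh2 (63.1 to 66.6) overlapped, and those of the other neighbours in this order did not. Before any miRNA was induced, the RNA for N-cadherin was thus far above that for E-cadherin, and the RNA for ZEB1 above that for EpCAM or vimentin. All levels below are CPM of library sizes scaled by TMM (the trimmed mean of M-values), which allow comparison of 1 gene between groups. In RNA from whole cultures, fewer cells that express a gene and less RNA per cell cannot be told apart.

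**Figure D1:**
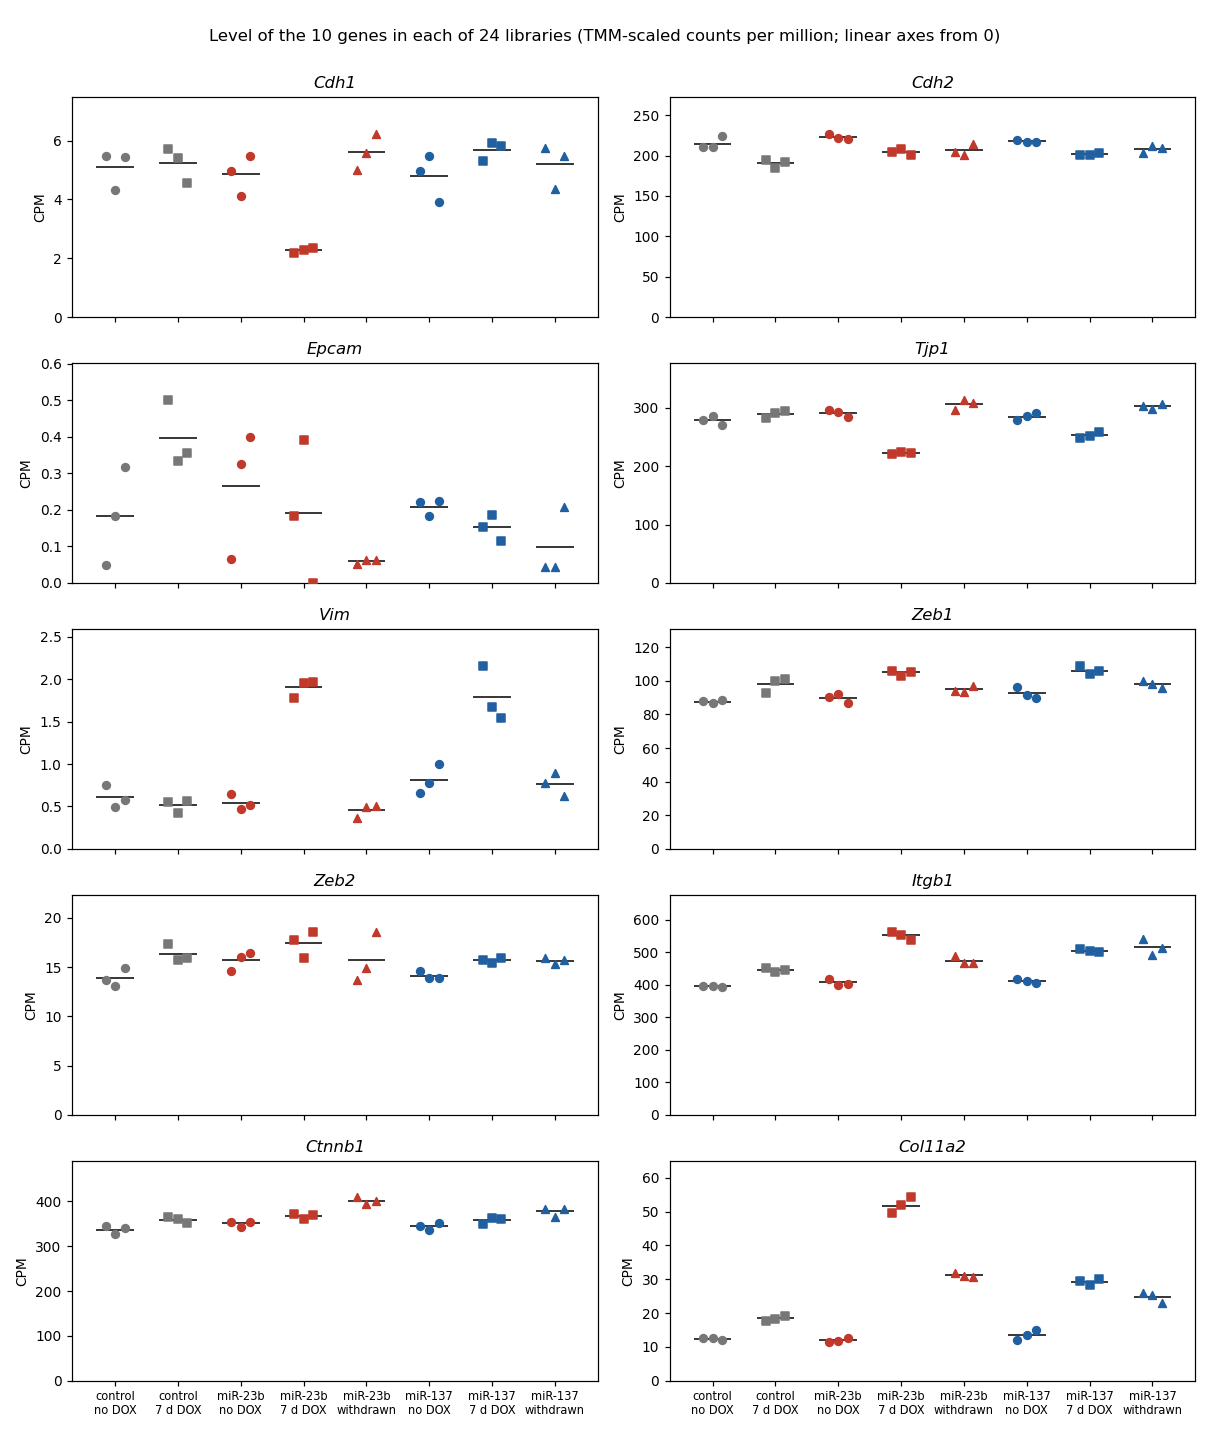
Level of each of the 10 genes in all 24 libraries, in TMM-scaled CPM on linear axes that start at 0. Points are libraries, bars are group means, and colours mark the control (grey), miR-23b (red) and miR-137 (blue) lines. The Cdh1 libraries of the induced miR-23b line, at 2.19 to 2.34 CPM, lie below all others, and Vim and Col11a2 are high in both miRNA lines with DOX.

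The first question was what DOX did in each line. With 7 d DOX, 8 of the 9 tested genes were called in the miR-23b line, 5 higher and 3 lower, where 57.4% of all genes tested were called (edgeR's quasi-likelihood test, adjusted p below 0.05). In the control line 6 were called, 5 higher and 1 lower, against 37.8% of all genes, and in the miR-137 line 6, 4 higher and 2 lower, against 42.9%. The median log2 fold change of the 9 genes was 0.09 in the control line, 0.13 in the miR-23b line and 0.20 in the miR-137 line, where the median of all genes lay within 0.008 of 0. The miR-23b response differed from the control response for 5 of the 9 genes, 3 higher and 2 lower, against 37.6% of all genes. The miR-137 response differed from it for 3, 2 higher and 1 lower, against 10.7%. The 2 miRNA lines differed from each other for 4, 2 higher and 2 lower, against 35.2%. These 3 sets of differences share libraries with each other. With so many genes called, the counts say little about these genes, and the sizes of change are given gene by gene.

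**Figure D2:**
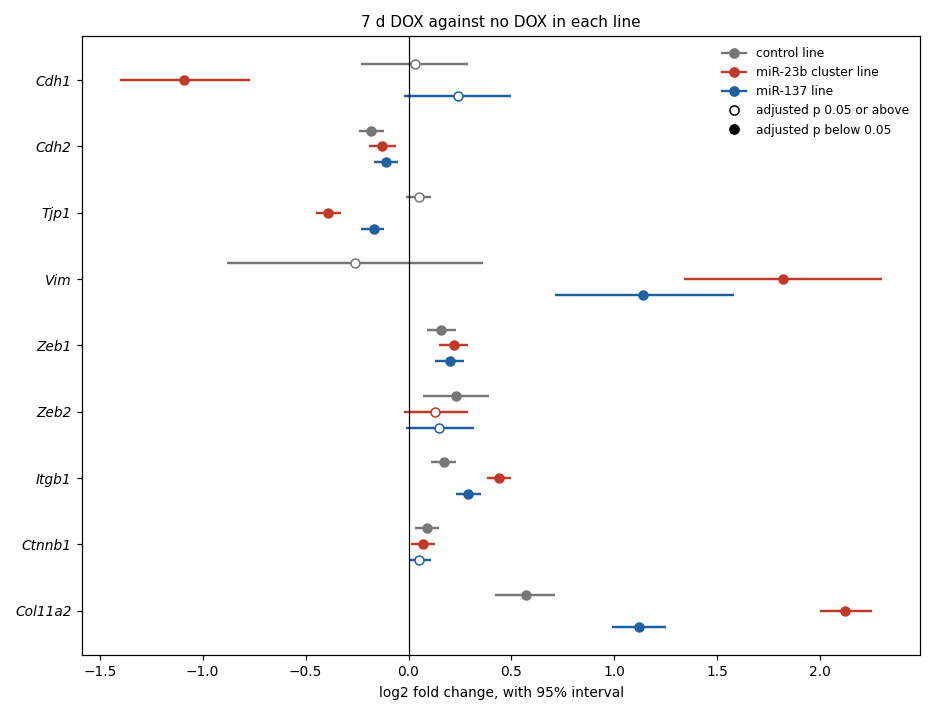
Log2 fold change of 7 d DOX against no DOX for the 9 tested genes in the control (grey), miR-23b (red) and miR-137 (blue) lines, with 95% intervals. Filled points have an adjusted p below 0.05. Cdh1 fell in the miR-23b line alone among the 3 lines (-1.09), Tjp1 fell in both miRNA lines (-0.39 and -0.17), and Vim and Col11a2 have the largest positive values of the miRNA lines.

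Cdh1 (chr8:106603351-106670246, plus strand, GRCm38) encodes E-cadherin. In the control line it read 5.49, 4.33 and 5.45 CPM without DOX and 5.71, 5.42 and 4.57 with DOX. Values in the miR-23b line went from 4.98, 4.10 and 5.49 to 2.19, 2.27 and 2.34. The 3 induced libraries lay below each of the other 21. In the miR-137 line the values were 4.96, 5.46 and 3.90 without DOX and 5.30, 5.91 and 5.83 with DOX, which overlap. The log2 fold change with DOX was -1.09 (SE 0.16), a 2.12-fold fall, in the miR-23b line (edgeR adjusted p = 3.6e-07). It was 0.03 (SE 0.13) in the control line and 0.24 (SE 0.13) in the miR-137 line, neither of which was called (adjusted p = 0.878 and 0.147). The miR-23b response lay below the control response by -1.12 (SE 0.21, edgeR adjusted p = 4.65e-05) and below the miR-137 response by -1.32 (SE 0.21, adjusted p = 3.33e-06). These values rest on 38 to 133 counts per library. On the log2(TPM + 1) scale, which understates changes of low genes, the fall was -0.47 and was called as well.

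The Cdh1 3' UTR holds 1 match to the seed of miR-27b-3p, a miRNA of the induced cluster. It is shown because Cdh1 fell when that cluster was on. The mature sequence (RefSeq, from the Mir27b locus, seed in capitals) and the stretch of the UTR around the match (chr8:106670044-106670072, plus strand, paired bases in capitals) were as follows.
miR-27b-3p: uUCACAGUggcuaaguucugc
Cdh1 3' UTR: gaccacaatcaACTGTGAgaactgttgat
This is a match of 7 bases to the whole seed. Of 12977 tested genes with an annotated 3' UTR, 29.6% hold a match to this seed, so such a match is common.

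Cdh2 (chr18:16588877-16809246, minus strand) encodes N-cadherin. It read 211, 211 and 224 CPM in the control line without DOX and 195, 185 and 192 with DOX. Under DOX the miR-23b line went from 227, 222 and 221 to 205, 208 and 201, and the miR-137 line from 219, 217 and 217 to 201, 201 and 203. In each line every DOX library lay below every no DOX library. The log2 fold changes were -0.18 (SE 0.03) in the control line, -0.13 (SE 0.03) in the miR-23b line and -0.11 (SE 0.03) in the miR-137 line (edgeR adjusted p = 1.91e-05, 0.000734 and 0.00395). The value of the miR-23b line depended on the scaling: it was -0.07 with library totals alone and 0.01 on the TPM scale, neither called. Neither miRNA line's response was called different from the control response (0.05, 95% interval -0.04 to 0.14, and 0.07, -0.02 to 0.15), although the miR-23b difference was 0.16 and called on the TPM scale, where the median of all genes had shifted by 0.10.

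The balance of the 2 cadherins can be read from the share of Cdh1 in their counts. Cdh1 made up 2.31 ± 0.269% (SD, n = 3) of the counts of both genes in the control line without DOX, 2.13 ± 0.308% in the miR-23b line without DOX and 2.14 ± 0.347% in the miR-137 line without DOX. With DOX it made up 2.67 ± 0.303%, 1.10 ± 0.0490% and 2.74 ± 0.149%. The 3 induced miR-23b libraries, at 1.06, 1.08 and 1.15%, were the lowest of all. Cdh1 was called lower in this comparison, and Cdh2 was not called higher under any scaling run.

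Tjp1 (chr7:65296165-65527781, minus strand) encodes the tight junction scaffold ZO-1. It read 279, 286 and 271 CPM in the control line without DOX and 283, 291 and 294 with DOX, which overlap. With DOX the miR-23b line went from 297, 293 and 285 to 221, 224 and 223, and the miR-137 line from 279.7, 286 and 291 to 249, 251 and 258. In both miRNA lines every DOX library lay below every no DOX library, and the miR-23b libraries with DOX were the lowest of all 24. The log2 fold changes were -0.39 (SE 0.03, edgeR adjusted p = 6.88e-14) and -0.17 (SE 0.03, adjusted p = 8.45e-06) in the miR-23b and miR-137 lines, against 0.05 (SE 0.03, adjusted p = 0.174) in the control line. The difference from the control response was -0.44 (SE 0.04, edgeR adjusted p = 1.04e-10) for the miR-23b line and -0.23 (SE 0.04, adjusted p = 0.000275) for the miR-137 line. The miR-23b response was lower than the miR-137 response by -0.21 (SE 0.04, edgeR adjusted p = 0.000126). On the TPM scale this last value was -0.09 and was not called (adjusted p = 0.298), where the median of all genes had shifted by 0.11.

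The Tjp1 3' UTR holds a match to miR-24-3p, which the induced cluster encodes, and a match to miR-137-3p. They are shown because Tjp1 fell with either miRNA induced. Both are matches to the whole seed followed by an A (8 bases, in capitals in the UTR), at chr7:65297393-65297422 and chr7:65296491-65296520 on the minus strand.
miR-24-3p: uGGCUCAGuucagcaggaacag
Tjp1 3' UTR: cgagcatgcccCTGAGCCAcggtcagaaaa
miR-137-3p: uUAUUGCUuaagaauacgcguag
Tjp1 3' UTR: ttgacctctgcAGCAATAAagcagcatttc
Among the 12977 genes, 26.5% hold a match of 7 or 8 bases for miR-24-3p and 15.6% for miR-137-3p.

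Epcam (chr17:87635979-87651129, plus strand) was at the limit of detection. Its libraries held 0 to 10 counts each, at 0 to 0.501 CPM, and the 3 libraries of a group held between 3 counts (miR-23b line, withdrawn) and 24 (control line with DOX) in all. The 1 library that read 0, of the miR-23b line with DOX, allows up to 0.189 CPM (3 counts, counting error only). In the control line the counts were 1, 3 and 6 without DOX and 10, 7 and 7 with it (0.0499, 0.183 and 0.318 CPM against 0.501, 0.333 and 0.356), which do not overlap. With DOX the libraries of both miRNA lines overlapped those without. Epcam was below the filter on low counts and was not tested. The promoter windows given by RefSeq (250 bases before to 50 after a start site, GRCm38.p6) were searched on both strands for the E-boxes CACCTG and CAGGTG, which are reverse complements of each other and are known to bind ZEB and SNAIL factors. The 7 genes with a window here (Vim, Zeb2, Tjp1, Itgb1, Ctnnb1, Col11a2 and Epcam) had 11 windows in all. Among these genes Epcam alone held any in its window, where 20.2% of all 32851 windows held 1 or more. Its window (chr17:87635729-87636028, plus strand, E-boxes in capitals, which start 187 and 19 bases before the start site) is shown for that reason.
Epcam promoter: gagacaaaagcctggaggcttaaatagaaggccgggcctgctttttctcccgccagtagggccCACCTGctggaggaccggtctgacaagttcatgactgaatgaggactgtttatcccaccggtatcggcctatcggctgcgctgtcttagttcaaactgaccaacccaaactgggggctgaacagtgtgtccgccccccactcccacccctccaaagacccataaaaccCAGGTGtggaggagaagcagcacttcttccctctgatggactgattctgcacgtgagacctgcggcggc

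Zeb1 (chr18:5591860-5775467, plus strand) encodes a zinc finger repressor of E-cadherin. It read 87.7, 86.7 and 88.5 CPM in the control line without DOX and 93.0, 100.1 and 101 with DOX. The miR-23b line went from 90.1, 92.0 and 86.9 to 106, 103 and 105, and the miR-137 line from 96.3, 91.4 and 89.9 to 109, 104 and 106. In each of the 3 lines the DOX libraries were the higher ones, without overlap. The log2 fold changes were 0.16, 0.22 and 0.20 (SE 0.04 each, edgeR adjusted p = 0.00049, 2.21e-06 and 2.04e-05). The responses of the miRNA lines were not called different from that of the control line (0.06, 95% interval -0.04 to 0.16, and 0.04, -0.06 to 0.14). On the TPM scale the miR-23b difference was 0.19 and was called, where the median of all genes had shifted by 0.10. Zeb1 was thus called higher in all 3 lines, and Cdh1 lower in 1 of them.

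Zeb2 (chr2:44983632-45117395, minus strand), its paralogue, read 13.7, 13.1 and 14.9 CPM in the control line without DOX and 17.3, 15.7 and 15.9 with DOX. The miR-23b line went from 14.6, 16.0 and 16.4 to 17.7, 15.9 and 18.6, which overlap, and the miR-137 line from 14.6, 13.9 and 13.9 to 15.7, 15.4 and 15.9. Zeb2 rose in the control line (log2 fold change 0.23, SE 0.08, edgeR adjusted p = 0.0258), a call that DESeq2 did not make (adjusted p = 0.0645). Leaving out no DOX library 1 or 2 or DOX library 1 of the control line also ended it (adjusted p = 0.0816 to 0.127). The values of 0.13 (SE 0.08) and 0.15 (SE 0.08) in the miR-23b and miR-137 lines were not called (edgeR adjusted p = 0.149 and 0.128), and the 3 responses were not called different from each other. On the TPM scale, where the median of all genes had shifted by 0.10, the miR-23b value was 0.28 and was called (adjusted p = 0.0347). It was also called without DOX library 2 of that line (adjusted p = 0.0481).

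Vim (chr2:13573927-13582826, plus strand) encodes vimentin, a filament protein of mesenchymal cells. Its level was very low everywhere, with 7 to 45 counts per library. It read 0.749, 0.488 and 0.582 CPM in the control line without DOX and 0.551, 0.428 and 0.559 with DOX. The miR-23b line went from 0.646, 0.466 and 0.515 to 1.78, 1.96 and 1.97, and the miR-137 line from 0.662, 0.774 and 1.00 to 2.16, 1.67 and 1.54. The 6 libraries with an induced miRNA lay above all other 18, and those of the 2 miRNA lines overlapped.

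Vim rose by 1.82 on the log2 scale (SE 0.24, edgeR adjusted p = 4.1e-08) in the miR-23b line and by 1.14 (SE 0.22, adjusted p = 5.01e-05) in the miR-137 line. It stood at -0.26 (SE 0.31, adjusted p = 0.591) in the control line. The difference from the control response was 2.08 (SE 0.41, edgeR adjusted p = 8.72e-05) for the miR-23b line and 1.41 (SE 0.39, adjusted p = 0.0177) for the miR-137 line. The second call was lost without no DOX library 1 of the control line (1.22, adjusted p = 0.103), without its DOX library 2 (1.29, 0.0523) or without DOX library 1 of the miR-137 line (1.26, 0.0552). The 2 miRNA lines were not called different (0.68, 95% interval -0.00 to 1.36). On the log2(TPM + 1) scale the rises were 1.22 and 0.63 and were called, as was the difference between the miRNA lines (0.59, adjusted p = 0.00137). For that difference the median of all genes had shifted by 0.11. The summed fibroblast and stellate markers ran from 3.18 to 4.32 CPM with DOX and from 2.35 to 2.61 without it in the miR-23b line, from 2.65 to 3.31 and from 2.50 to 3.31 in the miR-137 line, and from 4.56 to 4.93 and from 2.45 to 4.02 in the control line, where Vim was not called. Their part in the Vim result was not tested.

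Itgb1 (chr8:128685654-128733200, plus strand) encodes integrin β1, the shared partner of many matrix receptors. It read 397, 396 and 394 CPM in the control line without DOX and 451, 441 and 445 with DOX. The miR-23b line went from 419, 400.1 and 404 to 564, 553 and 539, and the miR-137 line from 419, 413 and 405 to 509.9, 504 and 501. All DOX libraries lay above the no DOX libraries of their line. The log2 fold changes were 0.17, 0.44 and 0.29 (SE 0.03 each, edgeR adjusted p = 2.5e-05, 4.77e-15 and 5.47e-10). The miR-23b response exceeded the control response by 0.27 (SE 0.04, edgeR adjusted p = 7.43e-06) and the miR-137 response by 0.15 (SE 0.04, adjusted p = 0.00831). The miR-137 line's difference from the control line was 0.12 (SE 0.04) and was not called (edgeR adjusted p = 0.0769), while DESeq2 called it (adjusted p = 0.0473). So did edgeR with only the compared groups fitted (adjusted p = 0.0375) or with a replicate block (0.038). On the TPM scale it was 0.14 and called (limma adjusted p = 0.013). It was not called with the other scalings or with the filter on low counts off.

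Ctnnb1 (chr9:120929216-120960507, plus strand), the gene of β-catenin, had the smallest called changes with DOX. It read 345, 327 and 339.8 CPM in the control line without DOX and 366, 361 and 352 with DOX, 355, 343 and 355 against 372, 362 and 369 in the miR-23b line, and 346, 337 and 351 against 350.2, 363 and 360.5 in the miR-137 line. The libraries overlapped in the miR-137 line alone. The log2 fold changes were 0.09, 0.07 and 0.05 (SE 0.03 each, edgeR adjusted p = 0.0148, 0.0491 and 0.143). The control line's call was lost without any 1 of 3 of its 6 libraries (no DOX library 2, DOX libraries 1 and 2, adjusted p = 0.0619 to 0.153), and that of the miR-23b line without any 1 of 5 of 6, all but DOX library 2 (0.0521 to 0.177). Ulk4, on the opposite strand, overlaps Ctnnb1 and held 17589 counts over the 24 libraries against 169556 for Ctnnb1. The sources used here do not say whether counting used strand.

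Col11a2 (chr17:34039437-34066685, plus strand), the gene of the α2 chain of collagen XI, had the largest fold change of the 9 in the control and miR-23b lines. It read 12.6, 12.5 and 12.1 CPM in the control line without DOX and 17.8, 18.2 and 19.1 with DOX. The miR-23b line went from 11.4, 11.6 and 12.7 to 49.5, 51.9 and 54.2, and the miR-137 line from 11.9, 13.4 and 15.1 to 29.5, 28.2 and 30.2. The DOX libraries of the 3 lines did not overlap with each other, and the no DOX libraries did. The log2 fold changes were 0.57 (SE 0.07), 2.12 (SE 0.06) and 1.12 (SE 0.07) in the control, miR-23b and miR-137 lines (edgeR adjusted p = 6.47e-08, 1.75e-26 and 1.03e-16). The response exceeded that of the control line by 1.55 (SE 0.10, edgeR adjusted p = 3.24e-15) in the miR-23b line and by 0.55 (SE 0.10, adjusted p = 0.000209) in the miR-137 line, and the 2 differed by 1.00 (SE 0.10, adjusted p = 1.04e-10). Its 3' UTR also holds an 8-base match to miR-24-3p of the induced cluster (chr17:34066520-34066549, plus strand), printed because the same 8 bases are in Tjp1 above, which fell.
Col11a2 3' UTR: tgccagtggctCTGAGCCActgtcctggcc

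Set together, matches to miR-27b-3p or miR-24-3p were found in 5 of the 10 genes (Cdh1, Tjp1, Zeb1, Zeb2 and Col11a2), against 44.6% of the 12977 genes. Of these 5, Cdh1 and Tjp1 fell in the miR-23b line relative to the control line, Zeb1 and Zeb2 did not differ from it by the test, and Col11a2 rose. Matches to miR-137-3p were found in Tjp1, which fell in the miR-137 line, and in Zeb2, which was not called there. Cdh2, Epcam, Vim, Itgb1 and Ctnnb1 held no match to these 3 seeds. A match is a description of the letters, and binding was not measured. Mature miR-23b-3p was not used here.

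Zeb2 carries more of these matches than any other of the 10 genes, in the longest 3' UTR of them (4941 bases). On the minus strand, 2 matches of 6 seed bases followed by an A lie at chr2:44987986-44988014 and chr2:44983838-44983866 for miR-27b-3p, and 1 of 8 bases at chr2:44986987-44987016 for miR-137-3p. They are printed for comparison with the Cdh1 and Tjp1 sites, since Zeb2 was not called lower with DOX in any line.
Zeb2 3' UTR, miR-27b-3p, nearer the stop codon: tttatttttttCTGTGAAggaacttgaag
Zeb2 3' UTR, miR-27b-3p, farther: tgttaccttcgCTGTGAAttgaaattgta
Zeb2 3' UTR, miR-137-3p: aattttagtttAGCAATAAttttgactggt

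The next question was what happened 7 d after DOX was removed. In the miR-23b line 7 of the 9 tested genes were called against the DOX cultures, 3 higher and 4 lower (52.2% of all genes), and in the miR-137 line 5, 2 higher and 3 lower (29.5%). Against the cultures that never had DOX, 4 were called in the miR-23b line, 3 higher and 1 lower (39.8%), and 4 in the miR-137 line, all higher (43.4%).

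Cdh1 returned. In the withdrawn miR-23b line it read 5.01, 5.58 and 6.23 CPM, above all DOX libraries (log2 fold change 1.30, SE 0.16, edgeR adjusted p = 7.68e-09) and overlapping those without DOX (0.21, 95% interval -0.06 to 0.48, not called). Its share of the cadherin counts was 2.64 ± 0.212% (SD, n = 3). In the miR-137 line it read 5.75, 4.36 and 5.46. Tjp1 rose on withdrawal to 296, 314 and 308 CPM in the miR-23b line (0.46, SE 0.03, edgeR adjusted p = 1.32e-15) and to 303, 298 and 307 in the miR-137 line (0.26, SE 0.03, adjusted p = 1e-08). Against no DOX it stood at 0.07 (not called, but called without no DOX or withdrawn library 1, 0.09 each) and 0.09 (SE 0.03, edgeR adjusted p = 0.0177). The latter call was lost without no DOX library 1 or 2 or withdrawn library 3 of that line (0.0543 to 0.0937), and the value was 0.00 on the TPM scale.

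Vim also returned, to 0.369, 0.496 and 0.509 CPM in the miR-23b line and 0.778, 0.898 and 0.626 in the miR-137 line. It fell by 2.05 (SE 0.26, edgeR adjusted p = 1.49e-08) and by 1.23 (SE 0.21, adjusted p = 2.35e-05) on the log2 scale against the DOX cultures, and overlapped the no DOX libraries in both lines. Col11a2 came back in part. It read 32.0, 31.1 and 30.7 CPM in the withdrawn miR-23b line and 25.8, 25.4 and 23.0 in the withdrawn miR-137 line. It thus fell against DOX by 0.72 (SE 0.05, edgeR adjusted p = 5.29e-14) and by 0.24 (SE 0.06, adjusted p = 0.00156). It remained above no DOX by 1.40 (SE 0.07, edgeR adjusted p = 7.72e-19) and 0.88 (SE 0.07, adjusted p = 1.05e-13), with no overlap.

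Itgb1 stood between no DOX and DOX after withdrawal in the miR-23b line, at 489, 466 and 468 CPM (-0.22 against DOX and 0.22 against no DOX, SE 0.03 each, edgeR adjusted p = 1.87e-07 and 3.86e-07). The withdrawn miR-137 line read 542, 491 and 514 CPM and was not called against DOX (0.03 against DOX, 95% interval -0.03 to 0.09, and 0.32 against no DOX, SE 0.03, adjusted p = 4.05e-11). Ctnnb1 was higher after withdrawal than in the other conditions of its line. It read 409, 394 and 401 CPM in the miR-23b line and 384, 365 and 383 in the miR-137 line, above no DOX by 0.20 and 0.13 (SE 0.03 each, edgeR adjusted p = 1.38e-06 and 0.000377). Against DOX it rose by 0.13 (SE 0.03, edgeR adjusted p = 0.000451) and by 0.08 (SE 0.03, adjusted p = 0.0446). The last call was lost without any 1 of 5 of 6 libraries, all but withdrawn library 2 (adjusted p = 0.0646 to 0.22). On the TPM scale both were 0.03 and not called, where the median of all genes had shifted by -0.11 and -0.02. Relative to that shift they were 0.14 and 0.05. The value against no DOX in the miR-137 line was 0.07 and not called on that scale.

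Zeb1 fell against DOX by 0.14 (SE 0.04, edgeR adjusted p = 0.00128) in the miR-23b line, to 94.2, 93.4 and 97.0 CPM, and by 0.11 (SE 0.04, adjusted p = 0.0121) in the miR-137 line, to 100.1, 98.3 and 95.7. The latter call was lost without DOX library 1 (adjusted p = 0.0594) or withdrawn library 3 (0.0634) of that line. Zeb2 read 13.7, 14.9 and 18.6 in the withdrawn miR-23b line and 15.9, 15.3 and 15.7 in the withdrawn miR-137 line, with no call in either line. Without DOX library 2 or withdrawn library 3 of the miR-23b line, its value there was called (-0.21, adjusted p = 0.0483, and -0.27, adjusted p = 0.00483). It was also called on the TPM scale (-0.43, or -0.32 relative to the shift of -0.11 in the median of all genes). Cdh2 read 204, 201 and 215 in the miR-23b line and 203, 212 and 209 in the miR-137 line. It was not called against DOX, though on the TPM scale the miR-23b line had -0.14, which was called (-0.03 relative to the same shift). Against no DOX it stood at -0.11 in the miR-23b line (SE 0.03, edgeR adjusted p = 0.00403, and 0.0526 without withdrawn library 2) and at -0.07 in the miR-137 line. The latter was not called, though it was without withdrawn library 2 of that line (-0.09, adjusted p = 0.0455) and on the TPM scale (-0.11, adjusted p = 0.00425).

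**Figure D3:**
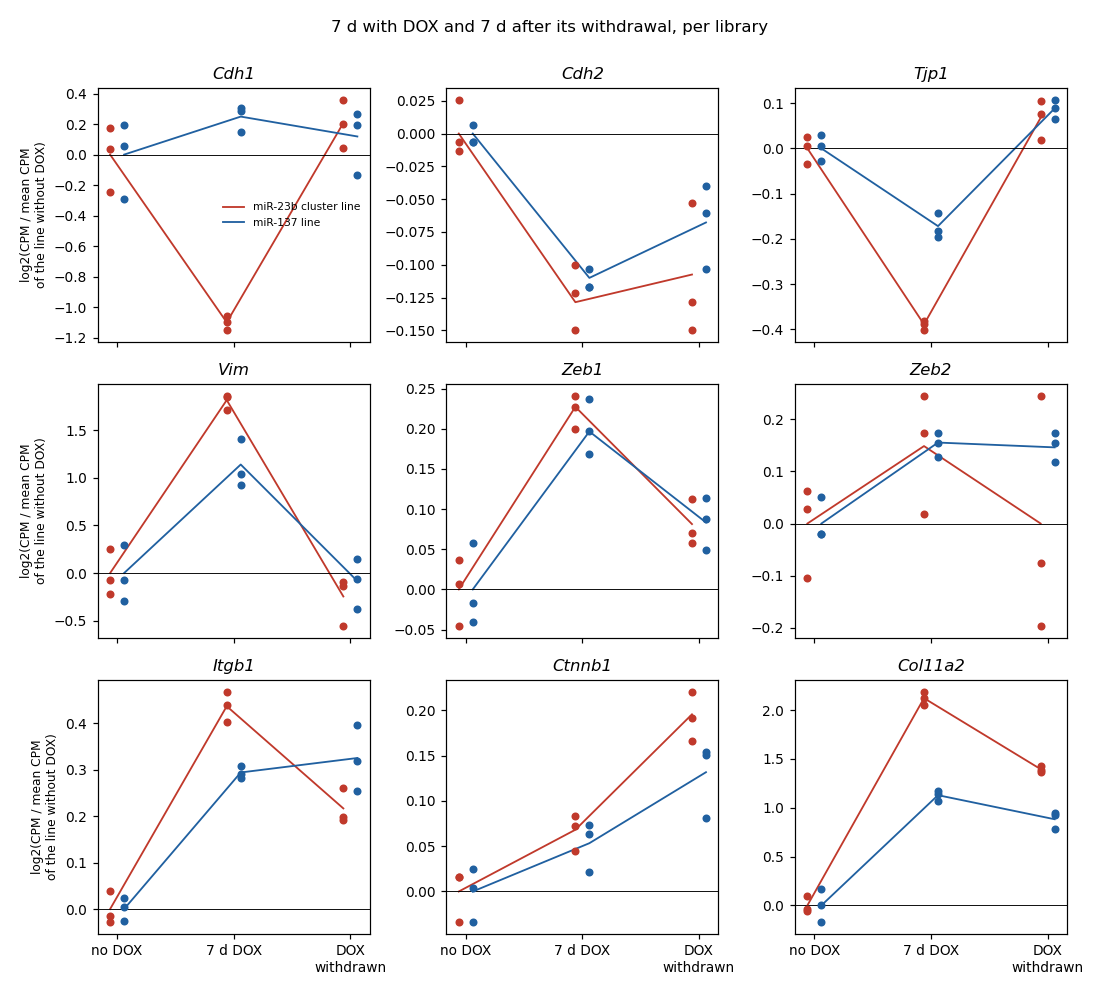
Log2 ratio of each library's CPM to the mean of its line without DOX, for 9 genes in the miR-23b (red) and miR-137 (blue) lines, for the no DOX, 7 d DOX and withdrawn cultures. Points are libraries, lines join group means, and the vertical scale differs between panels. Cdh1, Tjp1 and Vim lie near 0 again after withdrawal, while Col11a2 and Itgb1 lie above it and Ctnnb1 is at its highest.

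The cultures without DOX were also compared between lines. Of the 9 genes tested 0 were called between the miR-23b and control lines, where 6.37% of all genes were, and 0 between the miR-137 and control lines, where 2.70% were (edgeR). At an unadjusted p below 0.05, edgeR gave 2 in the first comparison, Tjp1 and Zeb2, and 1 in the second, Zeb1. DESeq2 called 0 in both. The largest of these log2 differences was that of Vim between the miR-137 and control lines, at 0.40 (95% interval -0.17 to 0.96).

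Other genes of the same processes came from lists made without these 10 genes, and their counts stand beside the 37.8, 57.4 and 42.9% of all genes called with DOX in the control, miR-23b and miR-137 lines. Of 19 tested tight junction and polarity genes, 9 were called lower and 3 higher with DOX in the miR-23b line (median log2 fold change -0.23). In the miR-137 line 6 were lower and 2 higher (-0.11), and in the control line 4 lower and 1 higher (-0.09). On the TPM scale the medians of the 3 lines were -0.09, -0.08 and -0.08. Cldn1, the gene of claudin 1, fell in all 3 lines, by 0.44 (SE 0.05), 0.69 (SE 0.05) and 1.12 (SE 0.05) on the log2 scale in the control, miR-23b and miR-137 lines. In the last it went from 75.9 ± 2.82 to 34.8 ± 0.800 CPM (SD, n = 3). Cldn12 fell by 0.83 (SE 0.05) and the polarity gene Pard6b by 0.74 (SE 0.10) in the miR-23b line. Cgn, the gene of cingulin, which binds ZO-1, fell by 0.65 (SE 0.08) in the miR-137 line and by 0.29 (SE 0.07) in the control line. In the miR-23b line Cgn read 18.9 ± 1.42 CPM with DOX and 25.6 ± 2.27 after withdrawal (SD, n = 3). Jam3 went the other way and rose by 0.37 (SE 0.05) in the miR-137 line. The miR-23b response differed from the control response for 9 of the 19, 2 higher and 7 lower, against 37.6% of all genes, but on the TPM scale for only 4, 1 higher and 3 lower. The miR-137 response differed for 3, all lower, against 10.7% of all genes.

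Among 10 tested desmosome and keratin genes, 4 were lower and 2 higher in the miR-23b line, 3 lower and 3 higher in the miR-137 line, and 2 lower and 2 higher in the control line. Dsg2, a desmosomal cadherin gene, fell by 0.24 (SE 0.07), 0.70 (SE 0.08) and 0.89 (SE 0.08) in the control, miR-23b and miR-137 lines. Krt18 fell by 0.72 (SE 0.09) in the miR-23b line. Its keratin partner gene Krt8 rose in all 3 lines, by 0.29 (SE 0.06), 0.31 (SE 0.06) and 0.78 (SE 0.05) in the control, miR-23b and miR-137 lines. Of 9 tested epithelial regulator and surface genes, 4 were lower and 2 higher in the miR-23b line (median -0.41). On the TPM scale 3 were lower and 2 higher there (median -0.13). In the control line 1 was lower and 1 higher (-0.09). Grhl1, the gene of a grainyhead transcription factor, rose by 0.23 (SE 0.07), 0.34 (SE 0.08) and 0.21 (SE 0.07) in the control, miR-23b and miR-137 lines. In the miR-23b line the surface protein genes Prom1 and Cd24a fell by 1.22 (SE 0.07) and 1.14 (SE 0.05). Prom1 went from 34.5 ± 0.747 to 14.7 ± 1.62 CPM (SD, n = 3). Cd24a fell in the control line too, by 0.65 (SE 0.04). In the miR-137 line 1 was higher and 2 were lower, with a median of 0.06.

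Of 17 tested adherens junction genes 7 were higher and 7 lower in the miR-23b line. The median was -0.09, and 0.03 on the TPM scale, where 7 were higher and 3 lower. In the miR-137 line 8 were higher and 5 lower, and in the control line 5 higher and 4 lower. The R-cadherin gene Cdh4 rose in all 3 lines, by 0.57 (SE 0.04), 0.95 (SE 0.04) and 0.50 (SE 0.04) in the control, miR-23b and miR-137 lines, and the induced miR-23b line reached 395 ± 18.8 CPM (SD, n = 3). Cdh6 rose by 0.94 (SE 0.09) in the miR-23b line and fell by 0.48 (SE 0.12) in the miR-137 line, to 14.2 ± 0.845 and 5.18 ± 0.166 CPM (SD, n = 3). Of 9 tested mesenchymal regulators and markers 5 were higher and 1 lower in the miR-23b line (median 0.28), 2 higher and 3 lower in the miR-137 line (-0.02), and 3 higher and 1 lower in the control line (0.19). Snai2, the gene of the repressor SLUG, rose by 0.52 (SE 0.09) to 12.6 ± 1.23 CPM under DOX in the miR-23b line, and the hyaluronan receptor gene Cd44 by 1.01 (SE 0.15) to 5.45 ± 0.666 CPM (SD, n = 3). Nes, the gene of the filament protein nestin, fell by 0.39 (SE 0.04) there and rose by 0.19 (SE 0.04) in the miR-137 line. Ncam1 rose in all 3 lines, by 0.29, 0.37 and 0.33 (SE 0.03 each) in the control, miR-23b and miR-137 lines. Cald1 stood at -0.26 (SE 0.04) in the control line and at -0.27 (SE 0.04) in the miR-137 line. Of the 27 genes of this list 9 passed the filter on low counts.

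Of 13 tested integrin genes other than Itgb1, 1 was higher and 5 were lower in the miR-23b line, 2 higher and 5 lower in the miR-137 line, and 2 higher and 4 lower in the control line. The control list's median was 0.22, opposite in sign to most of its calls. Itgav and Itgb5, which pair to bind vitronectin, fell in each line, by 0.29, 0.24 and 0.53 (SE 0.04 each) and by 0.28 (SE 0.04), 0.30 (SE 0.05) and 0.54 (SE 0.05) in the control, miR-23b and miR-137 lines. Itgb8 fell by 0.52 (SE 0.11) in the miR-23b line and rose by 1.03 (SE 0.08) in the miR-137 line. On the TPM scale 4 integrin genes were higher and 2 lower in the miR-23b line. Of 14 tested integrin adhesion proteins, 7 were higher and 1 lower in the miR-23b line, 4 higher and 2 lower in the miR-137 line, and 3 higher and 5 lower in the control line. The tetraspanin gene Cd151 rose by 0.64 (SE 0.05) in the miR-23b line, and the focal adhesion gene Zyx fell in all 3 lines (by 0.40, 0.43 and 0.41, SE 0.04 each).

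Of 13 tested collagen genes other than Col11a2, 6 were higher and 2 lower in the miR-23b line, 4 higher and 1 lower in the miR-137 line, and 6 higher and 1 lower in the control line. The medians were 0.46, 0.08 and 0.50, and 0.11, 0.08 and 0.02 on the TPM scale. Col27a1, another fibrillar collagen gene, rose by 0.60 (SE 0.07), 1.06 (SE 0.07) and 1.18 (SE 0.06) in the control, miR-23b and miR-137 lines. Col4a1, a basement membrane collagen gene, fell by 0.52 (SE 0.06), 0.72 (SE 0.07) and 0.91 (SE 0.07). Col6a3 rose by 0.55 (SE 0.07) in the control line and fell by 0.69 (SE 0.08) in the miR-23b line, from 15.7 ± 1.13 to 9.69 ± 0.701 CPM (SD, n = 3). Of 12 tested genes of the Wnt and β-catenin pathway, 3 were higher and 2 lower in the miR-23b line, 1 higher and 5 lower in the miR-137 line, and 1 higher and 2 lower in the control line. Axin2, a target of β-catenin signalling, fell by 0.40 (SE 0.07) in the miR-23b line.

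**Figure D4:**
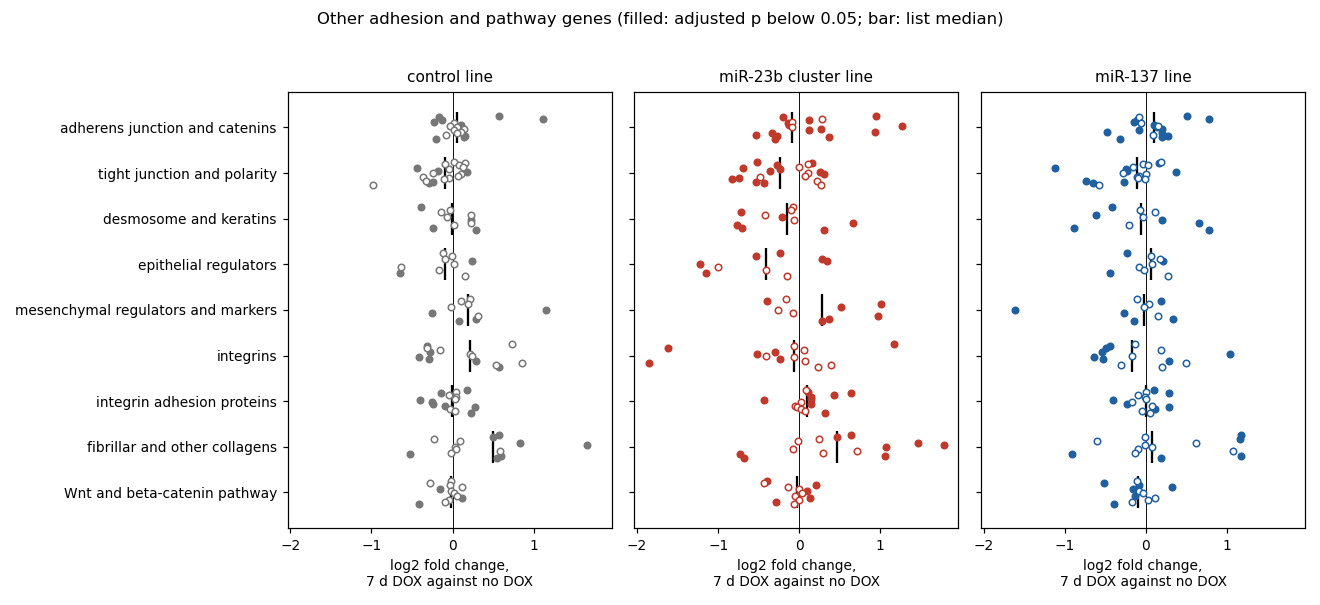
Log2 fold change of 7 d DOX against no DOX for every tested gene of 9 lists that leave out the 10 genes above, in the control (grey), miR-23b (red) and miR-137 (blue) lines. Filled points have an adjusted p below 0.05 and bars are list medians. The median of the tight junction genes lies below 0 in all 3 panels, lowest in the miR-23b panel (-0.23, though -0.09 on the TPM scale), and that of the mesenchymal genes is at 0.28 there and at -0.02 in the miR-137 panel.

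On withdrawal in the miR-23b line, 9 of the 19 tight junction genes rose and 6 fell against DOX, where 52.2% of all genes were called. The median was 0.09, and -0.03 on the TPM scale, where 7 rose and 6 fell. Cldn12 was up by 0.90 (SE 0.05). Of the 9 mesenchymal genes 5 fell and 1 rose, with Cd44 lower by 1.99 (SE 0.18), at 1.41 ± 0.443 CPM (SD, n = 3), and Snai2 lower by 0.45 (SE 0.09). Prom1 rose by 1.68 (SE 0.07), to 47.3 ± 2.29 CPM, and Cdh6 fell by 1.97 (SE 0.11), to 3.61 ± 0.703 CPM. Col6a3 rose by 1.56 (SE 0.08), to 28.7 ± 1.12 CPM. Not all listed genes ended at their level without DOX. Prom1 and Cdh6 went past it (0.46, SE 0.06, and -1.03, SE 0.13, against no DOX), and Col6a3 also ended above it. Perp, of the desmosome list, read 14.3 CPM without DOX, 13.4 with it and 9.02 after withdrawal (-0.58, SE 0.09, against DOX). Its fall thus came after withdrawal. Against no DOX, Cldn1, Dsg2 and Cd24a stood at -0.40, -0.51 and -0.57 in the withdrawn miR-23b line. In the withdrawn miR-137 line they stood at -0.61, -0.45 and -0.59. Higher than no DOX in these 2 lines were Jam3 (0.34 and 0.27) and Krt8 (0.51 and 0.44).

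The genes whose pattern over the 8 group means was most like that of a member were named by Pearson's r of log2 CPM, among 10460 genes (10459 for Zeb1, Zeb2 and Col11a2, which were among them). For Cdh1 these were Sft2d2 (r = 0.995), Vrk3 (0.993) and Lpcat1 (0.987). In the miR-23b line, Vrk3 stood at 38.4 CPM with no DOX, 23.4 with DOX and 41.0 after withdrawal, and in the other groups at 39.2 to 41.5. For Vim they were Shroom3 (0.974), Tmx4 (0.965) and Ints6l (0.958), and with DOX Shroom3 reached 37.5 and 34.5 CPM in the miR-23b and miR-137 lines against 22.5 to 29.6 in the other groups. For Zeb1 they were Trim46 (0.980), Socs2 (0.979) and Rprd2 (0.979), and for Zeb2 Pithd1 (0.981), Cdk5rap2 (0.955) and Igf2 (0.954). For Col11a2 they were Klhl7 (0.991), Zfp706 (0.990) and Casd1 (0.989). With DOX, Klhl7 reached 208 CPM in the miR-23b line, against 131 without it and 182 after withdrawal. All points share the same libraries and scaling, and r over 8 means is a description. Ranked over the 24 libraries instead, 2 of the 3 genes were kept for Vim and for Zeb2 and 0 of the 3 for Cdh1, Zeb1 and Col11a2. The values for Zeb2 were much lower there, with r = 0.752 for Pithd1, 0.741 for Igf2 and 0.425 for Cdk5rap2 (rank 1550).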

How the data were processed

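The 10 genes and the gene lists were chosen with earlier results of these data known, and no list count is independent support. Per the labels' protocols, libraries were made with a stranded mRNA kit from 500 ng of RNA. The deposited files hold raw read counts per gene, not normalized, and the submitters' processing notes list, with no role or order, featureCounts, RSEM 1.2.19, HTSeq 0.6.1, STAR 2.4.0g, cutadapt 1.3, and the builds mm10 and GRCm38. The sources used here do not give the settings, the strand option or the tool behind each table. A deposited table of the whole series held the same counts (0 differing values). A further deposited table was read as TPM, scaled by the authors per library, since its columns sum to 999999.3 to 1000001.3, and served as an alternative. Reads outside genes made up 9.62 to 12.1% of reads listed and reads with more than 1 alignment 25.4 to 27.7%. Both were left out, with the other rows that name no gene.

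Counts were fitted in R 4.3.3 with edgeR 4.0.16: filterByExpr defaults, TMM scaling (factors 0.982 to 1.03), 1 model of 8 group means over the 24 libraries, and quasi-likelihood F tests with Benjamini-Hochberg adjustment over the 14866 genes tested in each of 12 comparisons. A gene was called at an adjusted p below 0.05. SE was taken as the size of the log2 fold change over the root of F. It and the 95% normal intervals built on it cover the spread between 3 libraries of a group, which may be technical since cells were only plated in triplicate. For Vim, with its low counts, they are narrower than the test implies. DESeq2 1.42.0, limma 3.58.1 on log2(TPM + 1), other scalings, no filter, fewer groups in the fit, a replicate block and libraries left out were the alternatives.

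All 10 genes were named whatever their values. From each list up to 4 called genes were named, those of largest fold change that reached 5 CPM in the higher group and whose libraries did not overlap. Genes like a member had to reach a mean of 5 CPM. Markers and lists were written from general knowledge. The endothelial, leukocyte, and ductal and exocrine markers summed to 6.86 to 10.0, 1.93 to 4.19 and 3.43 to 5.91 CPM. The longest 3' UTR per gene in GENCODE M21 was searched for matches to bases 2 to 7 followed by an A, 2 to 8, or both. miRNA and promoter sequences came from RefSeq (GRCm38.p6), with entries for 3 of 4 miRNAs and 7 of 10 promoters.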

Additional observations from a re-analysis of the deposited data

Results flagged for a closer look

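The tests of the difference between 2 lines' responses to DOX passed their threshold for 5 of the 9 genes (edgeR's quasi-likelihood test, n = 3 libraries per group). For Cdh1 the miR-23b response was lower than that of the control line by -1.12 and lower than that of the miR-137 line by -1.32. For Tjp1 the differences were -0.44 (miR-23b minus control), -0.23 (miR-137 minus control) and -0.21 (miR-23b minus miR-137), the last of which was not called on the TPM scale. For Vim they were 2.08 (miR-23b minus control) and 1.41 (miR-137 minus control). For Itgb1 they were 0.27 (miR-23b minus control) and 0.15 (miR-23b minus miR-137). For Col11a2 they were 1.55 (miR-23b minus control), 0.55 (miR-137 minus control) and 1.00 (miR-23b minus miR-137).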

How the results depend on the processing

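Cdh1, Vim and Col11a2 kept their direction and call with DOX in the miR-23b line under every alternative run. With DESeq2, the filter off, relative log expression scaling and fewer groups in the fit, no called gene changed direction. Values on log2(TPM + 1) from the authors' table turned Cdh2 from -0.13 to 0.01 (miR-23b line with DOX, not called), from -0.02 to 0.11 (miR-23b minus miR-137 response, adjusted p = 0.0393, limma) and from 0.01 to -0.14 (miR-23b withdrawal against DOX, adjusted p = 0.000585, limma). There the median of all genes shifted by 0.10, 0.11 and -0.11, and relative to it the Cdh2 values were -0.09, 0.00 and -0.03. Over all alternatives, libraries left out included, 841 of 1886 results of the 9 genes were called in both fits, with 0 changes of sign, and 955 in neither, of which 62 changed sign. A call was lost in 61 and gained in 26, and the 3 Cdh2 values above reversed.

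The number of genes called moved by over 1.5 times in 3 comparisons. In the others it moved by smaller ratios, though the share could move by more percentage points (DOX in the control line, 37.8 to 26.2%). With the filter off and in DESeq2, 28646 genes were fitted instead of 14866, so shares there are not comparable. For DOX in the control line 5304 and 4596 genes were called there, against 5624 in the main fit. Without DOX the share for the miR-23b against the control line was 6.37% in edgeR and 2.85% on the TPM scale, and for the miR-137 against the control line 2.70% and 1.02%. With libraries left out it was 1.37 to 4.5% and 0.397 to 1.96%, and for the miR-137 minus control response 3.98 to 10.8% (10.7% with all). The lowest of each came without replicate 2 of every group. Of single libraries left out, no DOX library 2 of the control line (3.18%) and libraries 1, 2 and 3 of the miR-23b line (3.09, 3.92 and 4.14%) moved the first count of called genes by over 1.5 times. No DOX libraries 2 and 3 of the control line (1.13 and 1.28%) and 1 and 2 of the miR-137 line (1.23 and 1.68%) did so for the second. Fewer samples were fitted in each. Leaving out 1 replicate number in all groups also ended the calls of Itgb1 (miR-23b minus miR-137, 0.13 without number 2), Zeb1 (control line, 0.13 without 2) and Col11a2 (miR-137 withdrawal against DOX, -0.17 without 3), and took Ctnnb1 from 0.08 to 0.04 there (without 1).

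The share of called genes that were higher with DOX in the miR-23b line was 50.2%, 61.4% with library totals and 67% on the TPM scale. For the miR-23b minus control response it was 48.3, 58.4 and 69.9%, and for miR-23b minus miR-137 47.7, 59.3 and 73.9%. On the TPM scale it went from 50.6 to 27.8% for miR-23b withdrawal against DOX and from 49.9 to 39.5% for miR-137 withdrawal against no DOX. The cause was not tested.

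Replicate numbers did not pair the samples: correlations of same-numbered deviations were -0.0548 to 0.123. With a replicate block the share of genes called rose, from 57.4 to 58% for DOX in the miR-23b line and from 2.70 to 3.67% between the miR-137 and control lines without DOX, and of the 9 genes' calls 1 changed, Itgb1 in the miR-137 minus control response (0.12, adjusted p = 0.038 in edgeR). Depth limits Epcam and, at 7 to 45 counts a library, Vim.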
